A study of Mus musculus with 6 samples.

Results

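The enzymes and regulators that make creatine and that make, hold in check and break down polyamines were followed in the pancreas of mice with and without Cftr, the gene of the epithelial anion channel that is lost in cystic fibrosis. They were taken as every probe set that the platform annotation maps to Gamt, Gatm, Ckb, Sat1, Odc1, Amd1, Srm, Sms, Oaz1 or Azin1, which gave 12 of the 12488 probe sets and covered 9 of the 10 genes. Of these probe sets, 8 carried a single gene symbol. The other 4 carried the symbol of Oaz1 or Sms together with that of a pseudogene (Oaz1-ps or Sms-ps), and their values belong to the pair, not to the enzyme alone. Amd1, the S-adenosylmethionine decarboxylase, had no probe set under its symbol, so its expression was not analysed here. Only the DNA before its start site was read. The list was chosen by earlier results of the same comparison on the same arrays, so the differences of its members are a description and carry no test.

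Total RNA from the pancreas of 6 male mice, 1 mouse per array, had been hybridised to one-colour oligonucleotide arrays. The 3 controls were CFTR+/+ and aged 57, 56 and 57 days (replicates 1, 2 and 3), and the 3 mice called CF were CFTR-/- and aged 57, 56 and 58 days. Every mouse, controls included, was gastrin+/-, had a background of 95% black6 and 5% 129Sv, and had received the liquid diet Peptamen since the age of 10 days against obstruction of the intestine. The labels do not say which Cftr mutation was used, and the RNA of control replicate 1 alone is described as coming from the entire organ. Array medians were 207.8 to 234.4 intensity units, and 7739 probe sets were bright enough to enter the comparison, with 3 arrays per group limiting the precision of every value. The tissue label fitted the acinar markers: 6 of the 7 on the array read at least 59038 on all arrays, the exception being the transcription factor gene Rbpjl, which was too dim to be tested.

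Creatine is made in a pair of steps. Gatm moves an amidino group from arginine to glycine, which gives guanidinoacetate and ornithine, and Gamt then methylates guanidinoacetate with S-adenosylmethionine as the methyl donor; the pancreas is, with kidney and liver, one of the organs known for these steps. Creatine kinases such as Ckb store energy as phosphocreatine. Polyamines start from ornithine, which Odc1 turns into putrescine; Srm and Sms add aminopropyl groups drawn from decarboxylated S-adenosylmethionine, which Amd1 supplies, to form spermidine and spermine, and Sat1 acetylates both for oxidation or export. Antizyme, the product of Oaz1, binds Odc1 and sends it to the proteasome, and Azin1 is an inactive relative of Odc1 that ties antizyme up. Both pathways draw on arginine and on S-adenosylmethionine.

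The clearest differences lay at the last step of creatine synthesis and at polyamine breakdown. Gamt was lower in all 3 CF mice on both of its probe sets, and Sat1 was higher in all 3, by 2.97-fold. Gatm was low in 2 of the 3 CF mice, and Azin1 leaned higher. The 95% interval of the difference excluded 0 for both Gamt sets, Azin1 and Sat1. It included 0 for Gatm, Ckb, Odc1, Srm, both Sms sets and the tested Oaz1 set. These intervals do not use the replicate numbers as pairs. With the pairs in the limma fit, Gatm also had an unadjusted p under 0.05. Of the 12 probe sets, 11 passed the brightness filter and 7 of these were lower and 4 higher in CF, with a median log2 difference of -0.19, beside 3862 lower and 3877 higher and a median of 0.00 over all 7739. In 2 of the 11 all CF values lay below all control values, which held for 5.62% of all tested probe sets, and in 1 of them above, which held for 7.37%. In limma, 0 of the 11 passed an adjusted p of 0.05, against 5 of 7739 (0.0646%), and 4 had an unadjusted p under 0.05, against 571. Because the list was built from this contrast, nothing is read from these shares. The lowest adjusted p among the members, that of the brighter Gamt probe set, was 0.080.

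**Figure D1:**
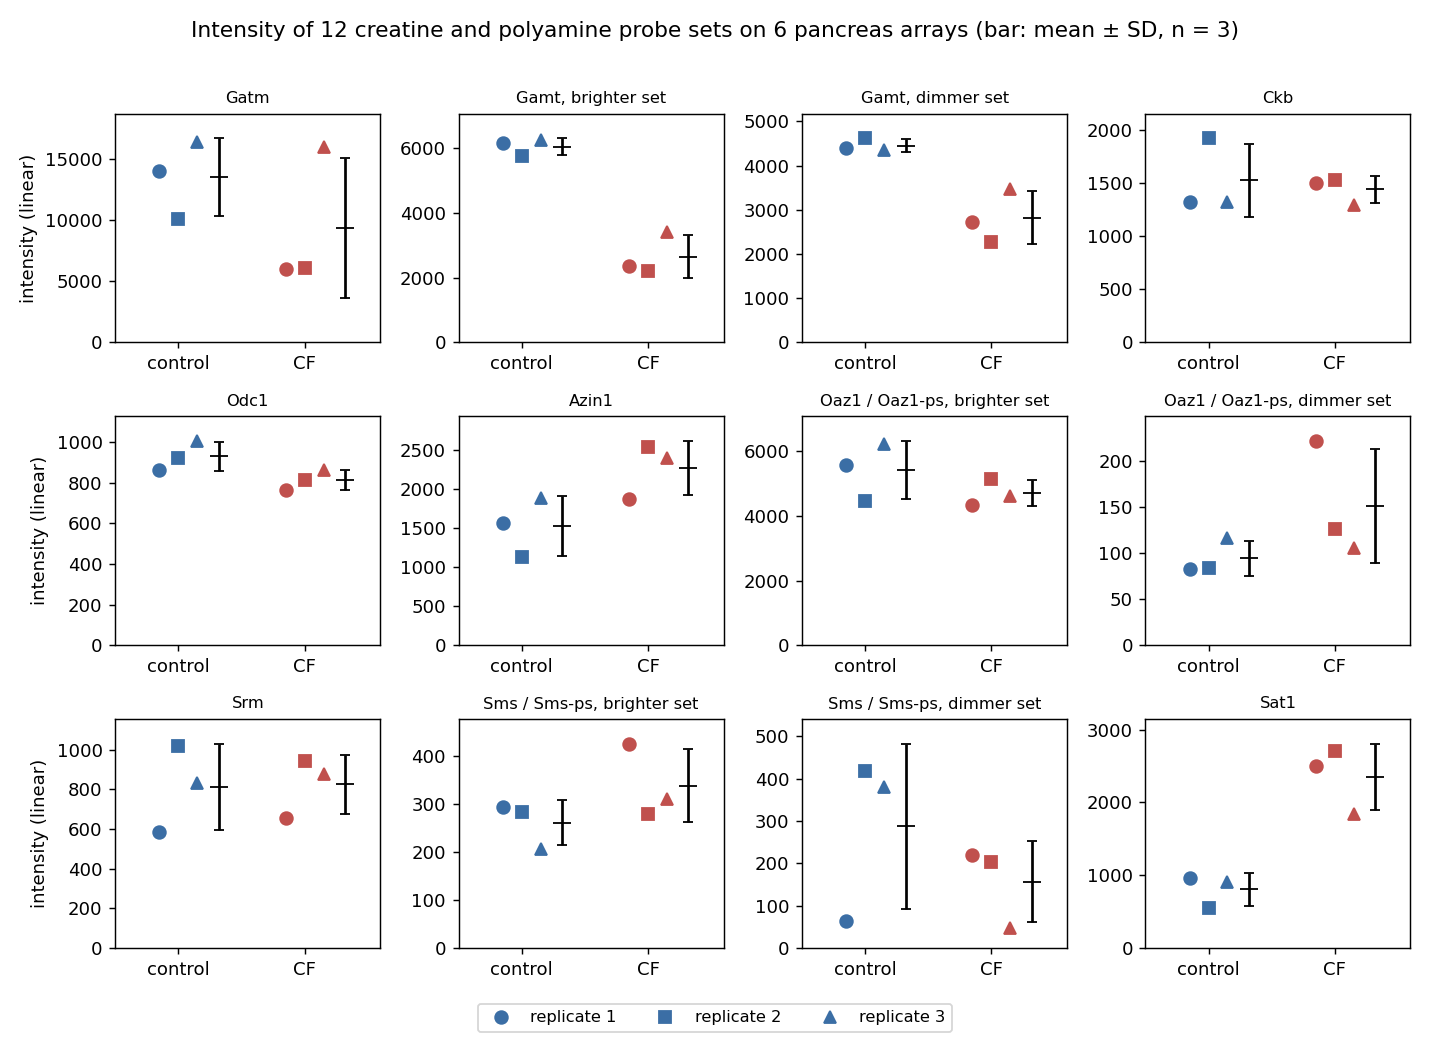
Intensity (linear axis from 0) of the 12 probe sets on the 3 control arrays (blue) and 3 CF arrays (red), with the symbol giving the replicate number and the bar the mean ± SD (n = 3). The Gamt values in CF lie below those of the controls on both probe sets, the Sat1 values of 1839 to 2707 in CF lie above the 545 to 966 of the controls, and Gatm in CF replicate 3 lies among the controls.

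The stretches of DNA just before the start sites of the creatine synthesis genes and of Sat1 are shown because these genes had the largest differences among the member probe sets of a single gene. Each is the 250 bases upstream of the start site in RefSeq (GRCm38.p6), 5′ to 3′ on the gene's own strand, which is the minus strand in each case. Gamt is given at chr10:80261013-80261262, Gatm at chr2:122611278-122611527 and Sat1 at chrX:155216450-155216699. Capitals mark matches, on either strand, to any of 7 short motifs, listed after the sequences.
Gamt: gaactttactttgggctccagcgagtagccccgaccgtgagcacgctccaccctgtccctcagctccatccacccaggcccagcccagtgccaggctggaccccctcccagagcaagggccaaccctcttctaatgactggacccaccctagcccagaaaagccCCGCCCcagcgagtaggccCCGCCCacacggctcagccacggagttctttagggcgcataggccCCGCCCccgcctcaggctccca
Gatm: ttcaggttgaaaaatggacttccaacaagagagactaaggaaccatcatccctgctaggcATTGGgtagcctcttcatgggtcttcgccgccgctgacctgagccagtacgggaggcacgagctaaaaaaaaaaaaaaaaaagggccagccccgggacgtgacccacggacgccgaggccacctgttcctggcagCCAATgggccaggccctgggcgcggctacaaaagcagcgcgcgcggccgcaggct
Sat1: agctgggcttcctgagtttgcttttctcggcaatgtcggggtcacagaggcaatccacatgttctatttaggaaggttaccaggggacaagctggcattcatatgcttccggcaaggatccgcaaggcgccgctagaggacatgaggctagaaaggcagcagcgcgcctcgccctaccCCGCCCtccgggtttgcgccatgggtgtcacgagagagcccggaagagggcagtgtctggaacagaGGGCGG

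The 7 motifs were the TATA box (TATAAA), the CCAAT box (CCAAT), the GC box (CCGCCC), the E-box bound by Myc and its partners (CACGTG), the AP-1 element (TGANTCA), the STAT element (TTCNNNGAA) and the composite element of ATF4 and C/EBP factors (TGATGNAAT), and no matches of different motifs overlapped in the members. The Gamt window held 3 GC boxes, starting 86, 67 and 22 bases before the start site. The Gatm window held CCAAT boxes starting at 190 and 55 bases, and the Sat1 window GC boxes starting at 72 and 6 bases. The GC box was present in 32.7% and the CCAAT box in 33.8% of all 32851 windows of that length. Of the 8 members with a window, 4 had a GC box and 4 a CCAAT box. A TATA box was found in 1 (Ckb, against 12.4% of all windows) and an E-box in 1 (Sms, against 6.02%). Sms had 2 start sites, and only the window of the most upstream one was read. Matches to the AP-1 (6.75% of all windows), STAT (7.02%) and ATF4 composite (0.816%) elements were found in 0 of the 8 windows. Srm and Azin1 had no entry.

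Gatm, which opens creatine synthesis, had control intensities of 14029, 10084 and 16425 (replicates 1 to 3, the order kept throughout), against 6011, 6103 and 15952 in CF. CF replicates 1 and 2 lay below every control, while CF replicate 3 lay between control replicates 1 and 3, so the groups overlapped. The means were 13512 ± 3202 and 9355 ± 5713 (intensity, mean ± SD, n = 3 per group), and the log2 difference, CF minus control, was -0.66 ± 0.37 SE (95% interval -1.50 to 0.17). Without CF replicate 3 it was -1.13, and without CF replicate 1 it was -0.42.

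Gamt, which completes creatine synthesis, had control values of 6146, 5746 and 6252, against 2344, 2190 and 3415 in CF, on the brighter of its 2 probe sets. The controls lay close together and every CF value lay well below them. The log2 difference was -1.22 ± 0.19 (95% interval -1.65 to -0.79), a 2.33-fold lower level, from 6048 ± 267 to 2650 ± 667. With CF replicate 3 left out the limma difference was -1.42 (adjusted p = 0.042), and under array weights it was -1.28 (adjusted p = 0.038). Over its 17 alternatives the adjusted p ranged from 0.038 to 0.40.

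The dimmer Gamt probe set gave the same order of arrays within CF with a smaller difference. It read 4388, 4623 and 4342 in controls and 2715, 2279 and 3460 in CF, again without overlap. The log2 difference was -0.68 ± 0.18 (95% interval -1.08 to -0.28). The identifier of this probe set carries the mark _f, which the array maker used for sets that can read a family of similar sequences. Across the 6 arrays both sets followed each other at r = 0.97 on the log2 scale, a description in which the group difference is shared.

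Ckb, the brain type creatine kinase, which spends ATP to charge the creatine store, read 1321, 1920 and 1322 in controls and 1496, 1527 and 1292 in CF. CF replicates 1 and 2 lay inside the control range and CF replicate 3 just under it, and control replicate 2 was the highest of the 6. The log2 difference was -0.06 ± 0.20 (95% interval -0.51 to 0.39), and its sign turned with array weights (0.049), without control replicate 2 (0.12) and without CF replicate 3 (0.014). The interval leaves room for a change of either sign.

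**Figure D2:**
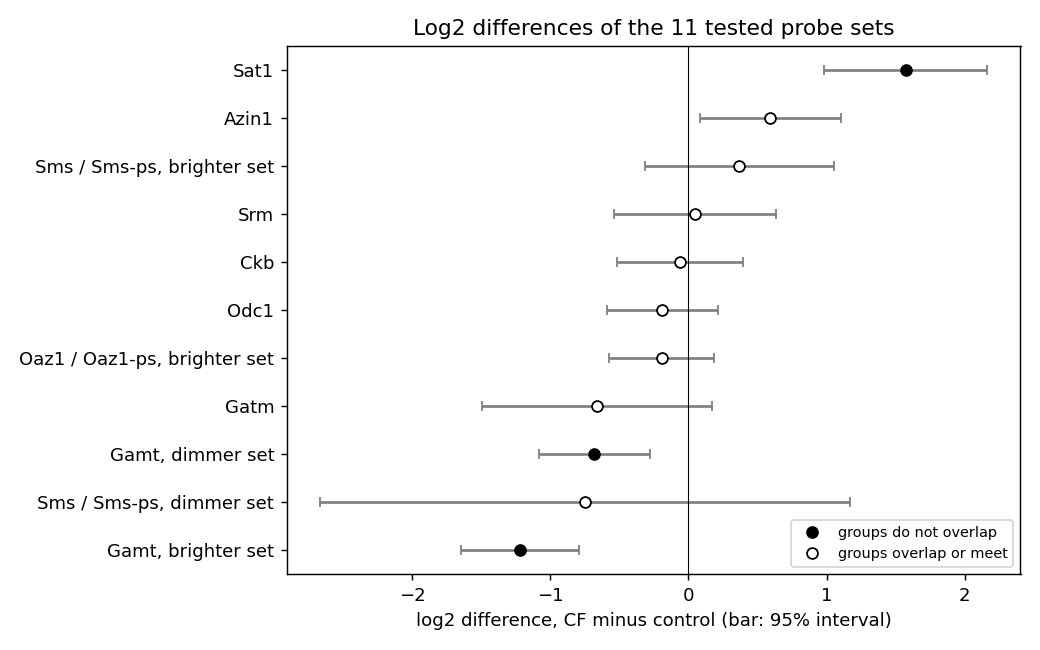
Log2 difference (CF minus control, horizontal axis) of the 11 tested probe sets with 95% intervals from the fit over all probe sets; filled points mark probe sets whose control and CF values do not overlap. The interval of the brighter Gamt set runs from -1.65 to -0.79 and that of Sat1 from 0.98 to 2.16. Those of Gatm, Ckb, Odc1, Srm, both Sms / Sms-ps sets and the Oaz1 / Oaz1-ps set include 0. Odc1, whose groups meet at 864, is drawn open.

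Odc1, the first enzyme of polyamine synthesis, read 864, 921.5 and 1005 in controls and 766, 814.1 and 864 in CF. The groups met at a single value, since control replicate 1 and CF replicate 3 both read 864. The means were 930.3 ± 71.1 and 814.7 ± 49.0, with a log2 difference of -0.19 ± 0.18 (95% interval -0.59 to 0.21). The difference was small in each pair of arrays with the same replicate number, at -0.17, -0.18 and -0.22.

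Srm, the spermidine synthase, read 582.9, 1018 and 832.8 in controls and 657.5, 940.5 and 878.2 in CF. The controls spanned the whole CF range. The log2 difference was 0.05 ± 0.26 (95% interval -0.54 to 0.63), and it was negative without control replicate 1 (-0.17), without CF replicate 2 (-0.06) and without CF replicate 3 (-0.0076). The Srm probe set also carries the mark _f.

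The 2 probe sets shared by Sms, the spermine synthase, and its pseudogene Sms-ps pointed in opposite directions and were both dim. The brighter one read 293.2, 283 and 207.1 in controls and 425.7, 279.2 and 311.4 in CF, with a log2 difference of 0.37 ± 0.30 (95% interval -0.32 to 1.05). The dimmer one read 64, 417.4 and 380.9 in controls and 219.6, 203.1 and 48.3 in CF. Its difference of -0.75 ± 0.84 (95% interval -2.67 to 1.17) ran from -1.63 without control replicate 1 to -0.037 without CF replicate 3. The groups overlapped on both sets, and neither gives a direction for Sms.

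The brighter of the 2 probe sets shared by Oaz1, which encodes the antizyme that restrains Odc1, and Oaz1-ps read 5585, 4452 and 6227 in controls and 4340, 5146 and 4625 in CF. The groups overlapped, with a log2 difference of -0.19 ± 0.17 (95% interval -0.57 to 0.18). The dimmer one was not tested: it read 82.8, 83.5 and 116.2 in controls and 221.7, 126.3 and 105.2 in CF, and only CF replicate 1 exceeded the filter of 140.2.

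Azin1, the antizyme inhibitor, read 1570, 1125 and 1886 in controls and 1879, 2536 and 2399 in CF. The groups touched by a narrow margin, since the lowest CF value (1878.6, replicate 1) lay just under the highest control value (1885.5, replicate 3). The means were 1527 ± 382 and 2271 ± 347, and the log2 difference was 0.59 ± 0.22 (95% interval 0.08 to 1.10). Leaving out 1 array at a time gave 0.39 to 0.76, the lowest without control replicate 2 and the highest without control replicate 3, with 0.72 when CF replicate 1 was left out and 0.51 when CF replicate 2 was.

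Sat1, the acetyltransferase that starts the breakdown of spermidine and spermine, showed the largest difference among the members. It read 965.6, 544.7 and 903.3 in controls and 2504, 2707 and 1839 in CF. The lowest CF value was well above the highest control value. The means were 804.5 ± 227.2 and 2350 ± 454, and the log2 difference was 1.57 ± 0.26 (95% interval 0.98 to 2.16). It did not pass an adjusted p of 0.05 in limma under any of its 17 alternatives, over which the difference ran from 1.31 to 1.74 and the adjusted p from 0.056 to 0.49.

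**Figure D3:**
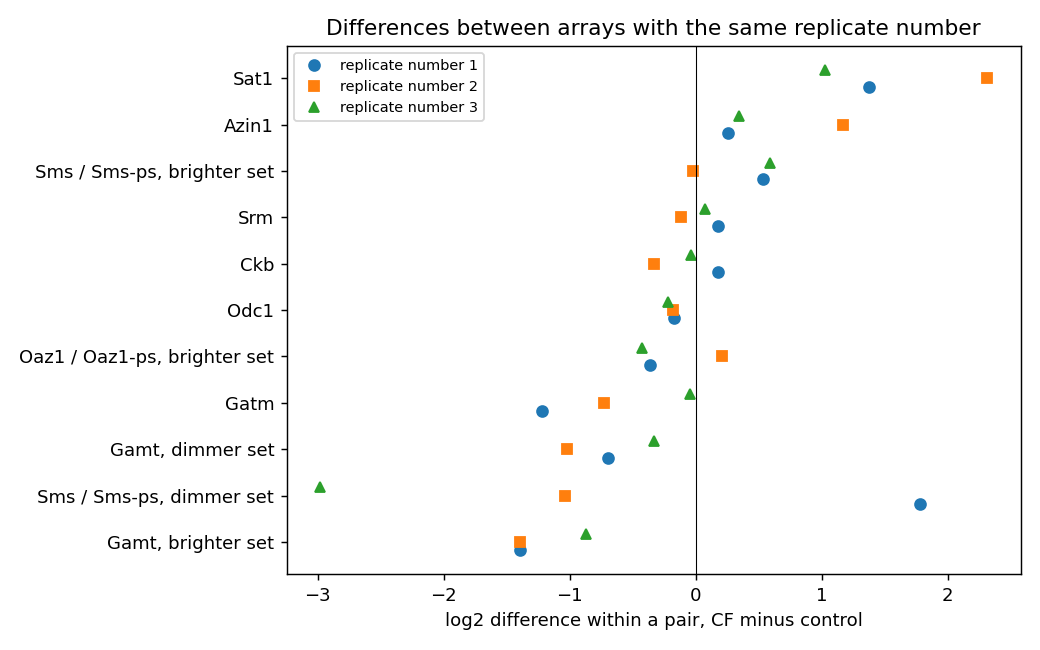
Log2 difference between the CF and the control array with the same replicate number (horizontal axis) for the 11 tested probe sets, 1 symbol per pair. The 3 pairs of the brighter Gamt set lie at -1.39, -1.39 and -0.87 and those of Sat1 at 1.37, 2.31 and 1.03, whereas those of the dimmer Sms / Sms-ps set spread from -2.98 to 1.78.

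The CF mice did not differ from the controls to the same degree. CF replicate 3, the mouse of 58 days, lay closest to the control mean for both Gamt probe sets, for Gatm and for Sat1, and also for Odc1 and Srm. For Azin1, Ckb and the dimmer Sms set CF replicate 1 was the closest. CF replicate 2 was the closest for the brighter Sms set and the tested Oaz1 set. In the third pair the difference was -0.87 and -0.33 on the Gamt sets, -0.042 for Gatm and 1.03 for Sat1. In the second pair it was -1.39, -1.02, -0.72 and 2.31. For comparison, of the 1005 tested probe sets whose groups did not overlap, CF replicate 3 was the closest in 41.6%, replicate 1 in 34.3% and replicate 2 in 24.1%. Gatm, whose groups overlapped, is not among the 1005. Control replicate 2 was the lowest control for Gatm, Azin1 and Sat1.

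Among 6893 tested probe sets of single named genes outside the list, those most like the brighter Gamt set over the 6 arrays were Aldh7a1 (r = 0.99), an aldehyde dehydrogenase of lysine breakdown, Spi1 (r = 0.98), a transcription factor of myeloid and B cells, and Gltp (r = 0.98), a glycolipid transfer protein. In all, 93 reached an r above 0.9 on the log2 scale. Aldh7a1 read 3166, 3007 and 3203 in controls and 2400, 2394 and 2603 in CF. Its log2 difference of -0.34 ± 0.14 was smaller than that of Spi1 (-1.48 ± 0.35) and close to that of Gltp (-0.41 ± 0.14). These 6 points share their group difference, and the likeness is a description.

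Of 81 genes in 7 neighbouring lists, which hold no member, 60 had a probe set of their own on the array and 46 passed the filter. In limma 0 of the 46 passed an adjusted p of 0.05, and 9 had an unadjusted p under 0.05, beside 571 of all 7739 probe sets. Of the 46, 19 were higher and 27 lower in CF (median log2 difference -0.09), and in 10 the groups did not overlap, 6 higher and 4 lower, beside 7.37% higher and 5.62% lower over all tested probe sets. These genes were chosen with earlier results known, and nothing particular to them is read from the counts. In the following, each adjusted p is from limma over all tested probe sets.

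The genes that feed both pathways with arginine and ornithine gave 3 higher and 5 lower of 8 tested (median -0.17). Arg2, the mitochondrial arginase, which makes ornithine from arginine, was the one without overlap. It read 106.3, 166.4 and 168.5 in controls and 351.1, 460.8 and 258.5 in CF, a log2 difference of 1.27 ± 0.37 (adjusted p = 0.43). Slc25a15, the mitochondrial ornithine carrier, and Aldh18a1, which opens proline and ornithine synthesis from glutamate, differed by -0.45 ± 0.28 (adjusted p = 0.78) and -0.58 ± 0.46 (adjusted p = 0.83). Of the glycine and serine genes 6 of 8 tested were lower (median -0.36). The serine synthesis genes Psph (-0.62 ± 0.21, adjusted p = 0.55) and Psat1 (-0.66 ± 0.29, adjusted p = 0.67) and the glycine cleavage gene Gcsh (-0.33 ± 0.18, adjusted p = 0.73) had the smallest p, and only Psat1 of these overlapped between the groups.

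Around S-adenosylmethionine, 2 of 7 tested genes were higher and 5 lower (median -0.22). Apip, which salvages the methylthioadenosine left by polyamine synthesis into methionine, read 1141, 1130 and 1130 in controls and 459.7, 623.8 and 603.1 in CF (log2 difference -1.02 ± 0.20, adjusted p = 0.15). Ahcy, which clears the S-adenosylhomocysteine left by methyltransferases such as Gamt, had 3 probe sets, and on all 3 the lowest CF array exceeded the highest control array. Their log2 differences were 0.97 ± 0.23, 0.81 ± 0.26 and 0.49 ± 0.25 (adjusted p = 0.25, 0.51 and 0.72). Over all 10 probe sets of these genes, in place of the brightest for each, the median was 0.0093. Enoph1, another salvage enzyme, read 118, 141 and 181.7 in controls and 33.6, 156 and 23.3 in CF. As 2 of its CF values lay under the floor of 47.6, the size of its difference was set by the floor: -1.03, against -1.54 with the floor at the pooled 5th percentile and -0.076 at the 40th.

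Of the other small-molecule methyltransferases, 3 of 5 tested were higher and 2 lower (median 0.20). Inmt, which methylates indole amines, read 137.8, 85.4 and 93.2 in controls and 546.8, 305.4 and 261 in CF (1.77 ± 0.42, adjusted p = 0.25). Nnmt, which methylates nicotinamide, read 360.6, 148.7 and 275.2 in controls and 100.1, 93.9 and 69.8 in CF (-1.50 ± 0.48, adjusted p = 0.51). Both were without overlap, in opposite directions. Both were also dim and passed the filter of 140.2 only through the group in which they were high, Inmt with 0 controls and Nnmt with 0 CF arrays above it. With the floor at the pooled 40th percentile the differences were 1.33 for Inmt and -0.81 for Nnmt. Gnmt, the glycine methyltransferase that is abundant in the exocrine pancreas, differed by 0.38 ± 0.20 (adjusted p = 0.72) with overlap.

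Among genes of polyamine oxidation, transport, control and hypusine, 4 of 8 tested were higher and 4 lower (median 0.05). Eif5a, the translation factor whose hypusine residue is made from spermidine, read 130.7, 152.4 and 171 in controls and 367.2, 344.4 and 227.1 in CF (1.03 ± 0.34, adjusted p = 0.53). Slc3a2, the shared heavy chain of several amino acid exchangers, differed by 0.50 ± 0.25 (adjusted p = 0.70) and Atp13a2, a lysosomal polyamine exporter, by 0.25 ± 0.20 (adjusted p = 0.84), both with overlap. Ckm and Ckmt1, the muscle and the mitochondrial creatine kinase, were the only tested genes of the creatine kinase and uptake list. They differed by -0.28 ± 0.61 and -0.05 ± 0.23 (adjusted p = 0.95 and 0.98). Ckm turned positive with the floor at the pooled 40th percentile and without CF replicate 3, and Ckmt1 without control replicate 2. A dimmer tested Ckmt1 set differed by -0.39 ± 0.32 (adjusted p = 0.84), with overlap.

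In the Myc network, 5 of 8 tested genes were higher and 3 lower (median 0.19). Myc is known to drive Odc1 transcription, but the list also holds genes that oppose Myc, so its counts give no direction for Odc1. Mycl and Mlx, both without overlap, differed by 1.09 ± 0.42 (adjusted p = 0.65) and 0.36 ± 0.16 (adjusted p = 0.68), and Mxd4, which opposes Myc, by -0.50 ± 0.28 (adjusted p = 0.74) with overlap. Myc itself read 268.6, 124.7 and 390.3 in controls and 278.9, 324.6 and 245.6 in CF.

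**Figure D4:**
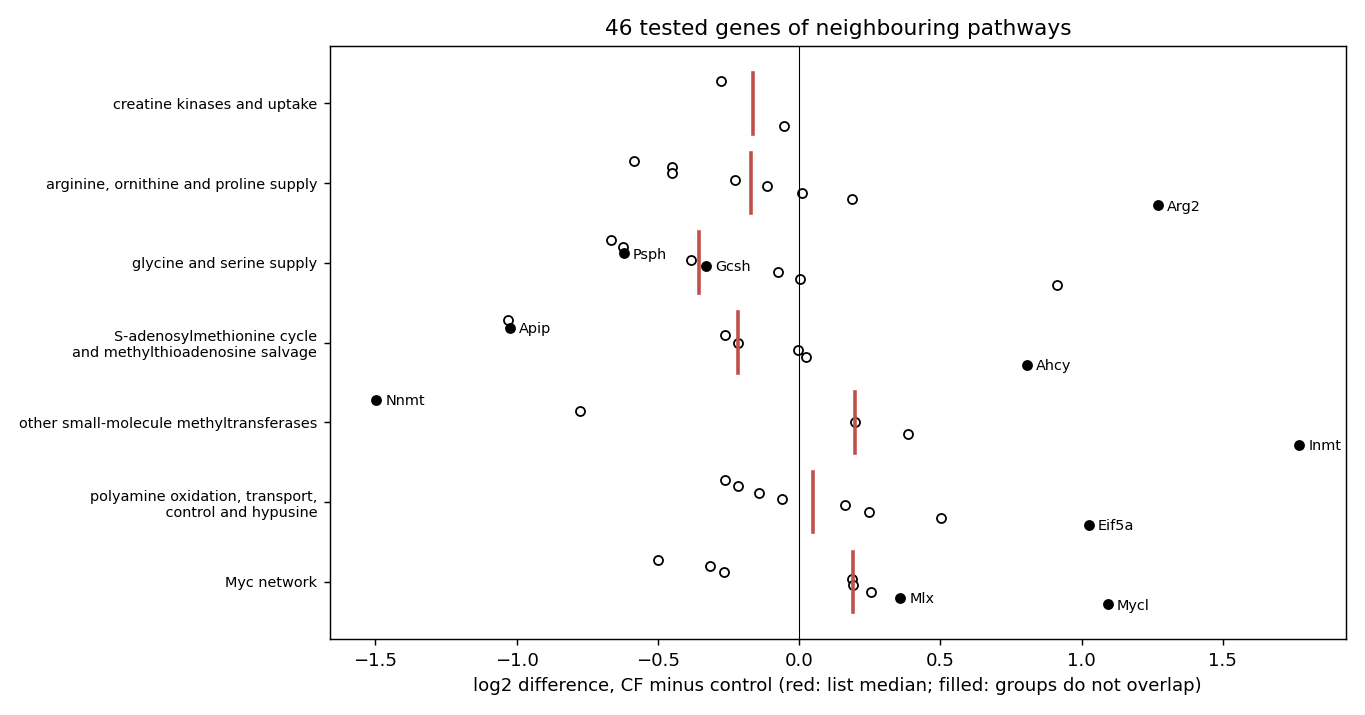
Log2 difference (CF minus control, horizontal axis) of the 46 tested genes of 7 neighbouring lists, 1 point per gene on its brightest tested probe set, with the list median in red. The 10 filled points with names are genes whose groups do not overlap, 6 of them higher and 4 lower in CF; 0 of the 46 passed an adjusted p of 0.05.

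In RNA of a whole organ, fewer cells of a type and less RNA per cell cannot be told apart. Of the marker intensities summed per cell type, only those of macrophage and smooth muscle did not overlap between the groups. In limma, 0 genes were called in each marker list. The summed intensity of 7 macrophage markers was 3119 to 5390 in controls and 2101 to 3066 in CF, all 7 lower. That of 8 smooth muscle markers was 3278 to 4519 and 2638 to 2850, 6 of 8 lower. Of these 8, 3 were below the brightness filter, among them Cnn1, which was higher in CF. Most single genes of both lists overlapped between the groups. Without overlap and lower were Cd68 and Laptm5, the brightest macrophage marker (1628 to 2105 in controls, 890.5 to 1304 in CF). Of the smooth muscle genes, Mylk and Acta2 (330.4 to 1007 in controls, 73.1 to 98.7 in CF) were lower without overlap and Cnn1 higher. The sums thus do not show a drop shared by all genes of a list. All 8 lymphocyte markers and all 6 adipocyte markers were lower as well, with sums that overlapped: 5183 to 10657 against 2832 to 6385 and 5522 to 14271 against 4320 to 5728. The acinar sum was 475794 to 642341 in controls and 449996 to 485281 in CF, with all 7 lower, and the duct sum 12828 to 17070 and 16729 to 19978, with 6 of 7 higher.

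The acinar, duct and all remaining sums overlapped between the groups. They were 19126 to 77418 in controls and 22306 to 59327 in CF for islet markers (4 of 7 higher), 1169 to 1906 and 1174 to 2051 for skeletal muscle (4 of 8 higher, 2 lower), and 11812 to 16271 and 10438 to 13529 for fibroblast and stellate cells (7 of 8 lower). They were 1052 to 1291 and 833.9 to 1245 for endothelium (5 of 6 lower), 1564 to 1791 and 1326 to 1722 for neural (3 of 5 lower, 1 higher), 1742 to 2908 and 1262 to 2059 for liver (4 of 5 lower), and 411.9 to 609.6 and 356.3 to 606.3 for kidney (4 of 5 higher). Acta1 and Tnni2 of the skeletal muscle list, Snap25 of the neural list and Fgb of the liver list were at or below the floor of 47.6 on all arrays. Other members of these lists were brighter, such as Atp2a1 (522.2 to 872), Mbp (562 to 894.5) and Alb (337.5 to 650.4). Below the brightness filter were 4 of 8 skeletal muscle, 3 of 5 neural, 3 of 5 kidney, 2 of 5 liver and 2 of 6 endothelium genes. The acinar, duct, adipocyte, lymphocyte, macrophage, and fibroblast and stellate cell lists each had 1 such gene. Kap of the kidney list counted as higher only because CF replicate 1 (54.2) exceeded the floor. RNA quality was read from Gapdh as the intensity of its 3' over its 5' control probe set, which was 0.80, 1.45 and 0.84 in controls and 0.72, 0.76 and 0.87 in CF. The part of these markers and of RNA quality in the values of Gamt, Gatm, Azin1 and Sat1 was not tested.

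**Figure D5:**
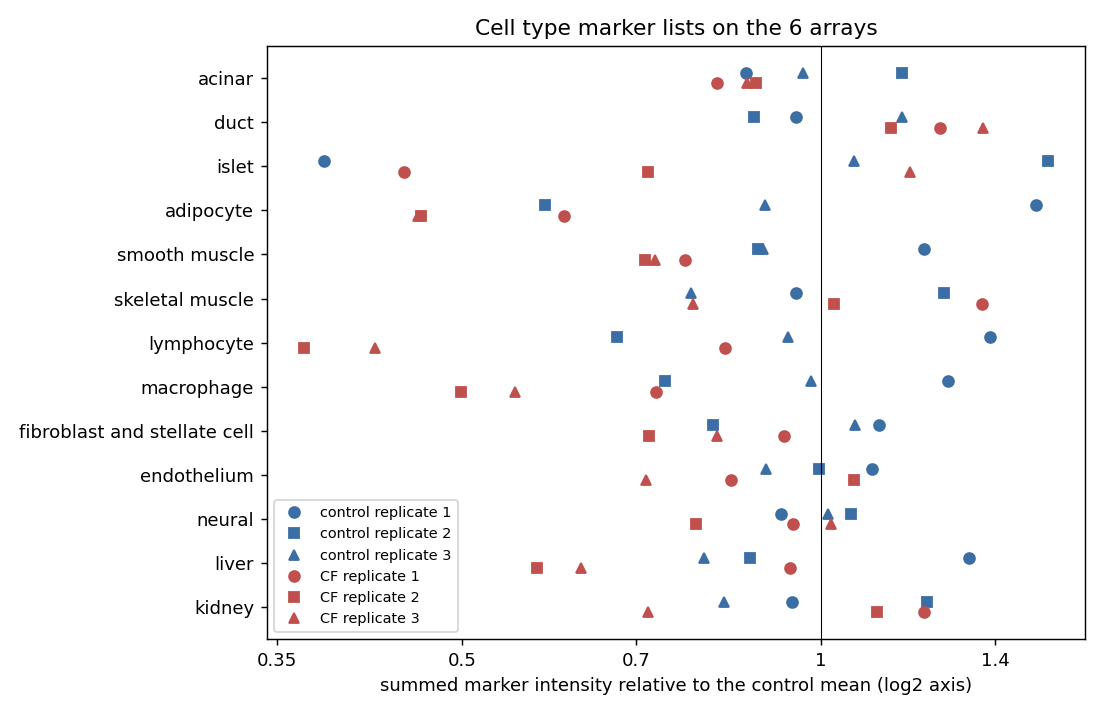
Summed intensity of 13 cell type marker lists on each array relative to the mean of the 3 controls (horizontal log axis, base 2), with control arrays in blue, CF arrays in red and the symbol giving the replicate number. The CF sums lie below all control sums for macrophage (2101 to 3066 against 3119 to 5390) and smooth muscle markers (2638 to 2850 against 3278 to 4519).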

How the data were processed

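Pancreatic total RNA was extracted with TRIzol, per the labels' protocols. For every array the authors deposited 1 linear intensity per probe set. The software was not given in the sources used here. Trimmed means (2% off each end) were 500.27 to 500.30, and no further scaling was applied. Members, lists and tests were chosen with earlier results of these data known.

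A floor at the 20th percentile of all pooled values (47.6) preceded the log2 step. Probe sets needed at least 3 of 6 arrays above the pooled 40th percentile (140.2), and 66 control probe sets were left out. CF was compared with control over 7739 probe sets in limma 3.58.1 (R 4.3.3) with an intensity trend and two-sided Benjamini-Hochberg adjustment. The fit was tested on simulated data. Alternatives covered scaling, floor, filter, variance model, array weights, block, threshold and leaving out each array.

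Replicate numbers follow the title suffix (none, B, P). Deviations from group means correlated at 0.23 to 0.26 between arrays of the same suffix and at -0.18 to -0.05 otherwise. As each group was centred on its own mean, the negative values follow from the positive ones and are no separate evidence. The suffix was taken to pair the arrays. It gave SEs only in the fit named replicate block.

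Of 12488 probe sets, 10855 had 1 symbol, 396 several and 1237 none; 10839 were matched to RefSeq names (GRCm38.p6). Named were all members, the 3 genes of smallest p in each neighbouring list on the probe set of highest mean, and the 3 genes most like Gamt. Further Ahcy and Ckmt1 probe sets, Myc and single marker genes were named after their values were seen.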

Additional observations from a re-analysis of the deposited data

How the results depend on the processing

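Of the 11 tested member probe sets, 0 were called at an adjusted p of 0.05 in limma, 1 with array weights (Gamt), 2 at an adjusted p under 0.1 (Gamt and Sat1) and 0 to 1 on leaving out an array. Among the members Ckb and Srm changed sign, as given above. The number lower in CF was 6 to 8 and the number higher 3 to 5 over all alternatives. The count of calls over all probe sets, 5, was 8 with median scaling, 10 with the floor at the pooled 40th percentile, 0 with no filter (773 of 12422 at an unadjusted p under 0.05), 3 with no intensity trend, 12 with array weights, 10 with the replicate block and 17 at an adjusted p under 0.1. It was 1 without CF replicate 1 or 2, 8 without CF replicate 3 and 11 without control replicate 2. The replicate block changed no call of a member (in limma, adjusted p = 0.087 for the brighter Gamt set and 0.17 for Sat1) or of the 46 neighbouring genes. With it, 5 members had an unadjusted p under 0.05 in limma, beside 908 of all 7739 probe sets. They were both Gamt sets, Sat1, Gatm (adjusted p = 0.36) and Azin1 (adjusted p = 0.37). Of the 23 other probe sets named by the rules above, 2 changed sign, those of Ckm and the brighter one of Ckmt1. Ckm gave 0.13 with the floor at the pooled 40th percentile and -0.64 to 0.41 on leaving out an array. The brighter Ckmt1 set gave -0.10 to 0.031 on leaving out an array. The cause was not tested. With all probe sets of each neighbouring gene in place of the brightest, the median was -0.06. With 3 arrays per group, a p that misses the threshold does not show that values did not differ.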
